A study of Mus musculus with 12 samples.

Results

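The genes described here carry symbols of families that write, erase or use marks on histones, or move nucleosomes, though some members have other targets. They were taken by symbol: Kmt2 and Kmt5, Setd and Ezh lysine methyltransferases, Kdm lysine demethylases, Hdac deacetylases, Kat acetyltransferases, Chd and Smarc remodellers, and Arid genes, leaving out chromosome Y. The rule found 77 genes among the 10751 named in any of the 4 deposited tables. A gene with no peak and no called change is in none of these tables, so it could not be a member. RefSeq holds 88 protein-coding genes off chromosome Y whose symbols match, and 12 of these had no entry under that symbol (Arid3b, Arid3c, Hdac8, Hdac9, Hdac10, Hdac11, Kat14, Kmt5b, Kmt5c, Smarca1, Smarcal1 and Smarcd3), at least some of which stand in the tables under older symbols that the rule does not match. Smarca5-ps, a pseudogene copy of Smarca5, matched and was kept.

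The cells were primary keratinocytes from the epidermis of newborn mice, grown on mitomycin C-treated fibroblast feeders in low-calcium medium. Day 0 cells were undifferentiated, and day 4 cells had been differentiated by a calcium shift. The labels give no strain, genotype or number of animals. Of 12 libraries, 3 per day were input polyadenylated RNA and 3 per day were RNA enriched by an antibody to N6-methyladenosine (m6A), the most common internal modification of mRNA. None of the tables gives values by library, so sequencing depth is unknown and every error below is the authors' own. The labels do not say whether replicates were separate cultures or animals, so the authors' p-values measure only the spread among these samples, possibly technical.

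Histone methylation and acetylation set which stretches of chromatin are open to transcription. COMPASS complexes, built on Kmt2a to Kmt2d and Setd1 enzymes, methylate histone H3 at promoters and enhancers. The Polycomb enzymes Ezh1 and Ezh2 lay down a repressive H3 mark that Kdm6 enzymes remove. In the epidermis, Ezh2 is known for holding back differentiation genes in basal progenitors, Kdm6b for being needed to turn them on, and Hdac1 and Hdac2 for progenitor growth. SWI/SNF (BAF) remodellers, whose motor is Smarca4 or Smarca2, use ATP to slide or evict nucleosomes.

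All 9 of 9 keratinocyte markers, among them Krt5, Krt14 and Trp63, had an m6A peak, as did 3 of 15 fibroblast and feeder markers (Acta2, Fn1 and Sparc) and 1 of 8 melanocyte markers. Of the keratinocyte markers 4 were higher at day 4, among them Krt5 and Krt14, 4 were lower, among them Trp63 and Itga6, and 1 was not listed per the authors' deposited table. Of 15 fibroblast and feeder markers, 5 were higher at day 4, 1 was lower and 9 were not listed per the authors' deposited table. All 10 of 10 cell cycle markers were lower at day 4, with a median log2 fold change of -2.30 per the authors' deposited table. Of 8 melanocyte markers 2 were higher and 6 not listed, and of 7 immune and endothelial markers 2 were higher, 1 lower and 4 not listed. The part of these shifts in the changes below was not tested, and in bulk RNA fewer cells of a type and less RNA per cell cannot be told apart.

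Expression was compared between days in the input libraries. Chromatin genes changed in both directions and by modest amounts: 20 were higher at day 4, 20 were lower and 37 were not listed, which means not called or not tested. Across the whole comparison, 53.5% of the 14924 genes tested were called at an adjusted p under 0.05, 27.1% higher and 26.4% lower. All 9 members without a peak are listed because the rule needs an entry somewhere, so the fairer reading is over members that have a peak. Of these 68 members, 17 were higher and 14 lower, together 45.6%, against 65.6% of all 7992 genes with a peak (31.0% higher and 34.6% lower). The median log2 fold change over the 40 listed members was 0.00058, against 0.26 over all listed genes, and it depended on the limit: it was -0.42 at an adjusted p under 0.01 and 0.28 among members with a mean normalized count from 100 upwards. The median size of change, in either direction, was 0.63 for members and 0.81 for all listed genes on the log2 scale. Only 7 of 40 members changed at least 2-fold (17.5%, against 39.7% of all listed genes), 3 higher and 4 lower, where 11.3% and 9.9% of the genes tested passed that limit in each direction.

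**Figure D1:**
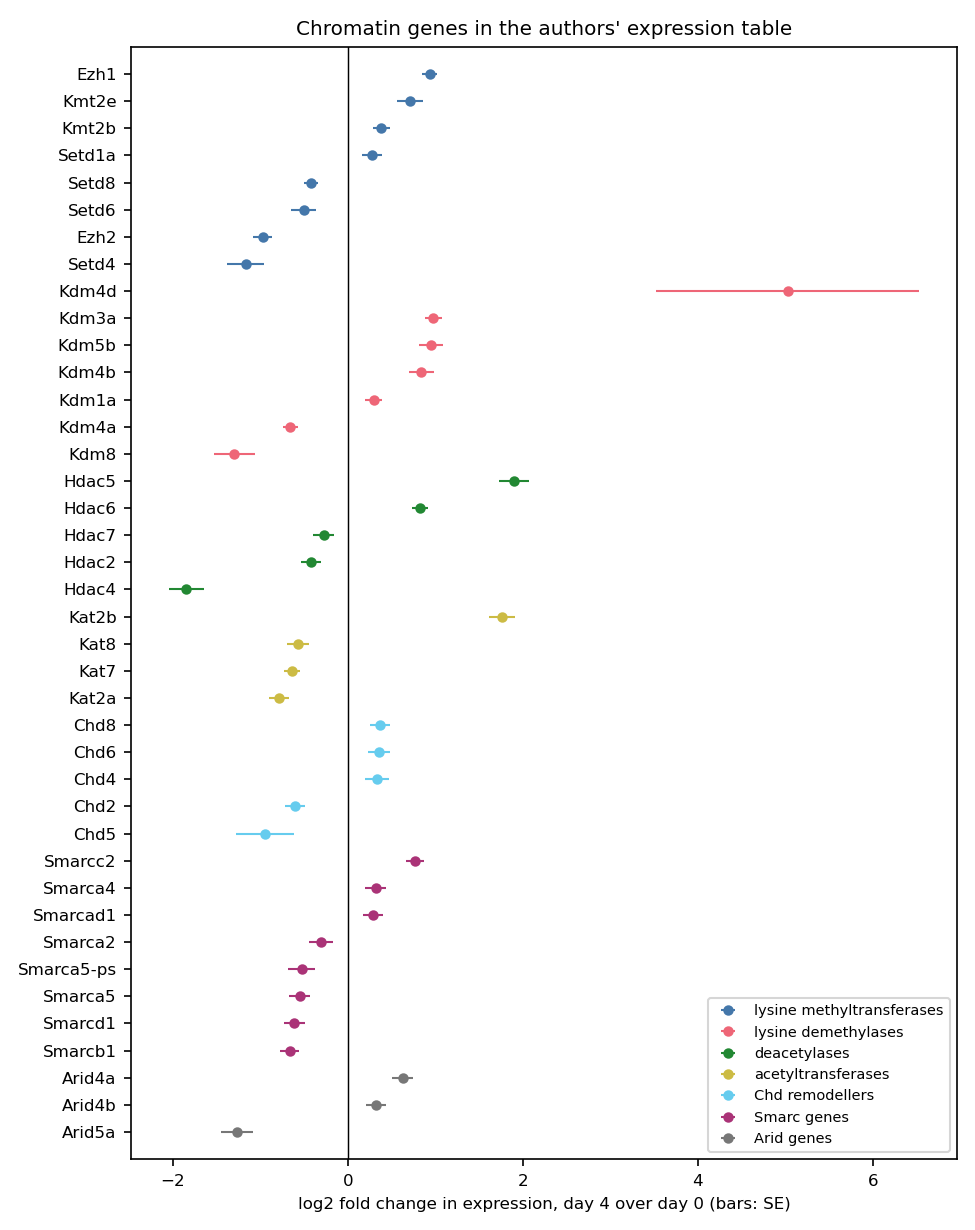
Log2 fold change in expression, day 4 over day 0, for the 40 chromatin genes per the authors' deposited table, coloured by role, with bars for the authors' standard error. Each role holds genes on both sides of 0, and Kdm4d, the farthest to the right at 5.03, has the widest bar.

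Among lysine methyltransferases, the paralogous Polycomb enzymes went opposite ways. Ezh1, the form typical of resting cells, was 1.92-fold higher at day 4 (log2 fold change 0.94, SE 0.09, DESeq2 adjusted p = 4.1e-25) per the authors' deposited table. Ezh2, the form typical of dividing cells, was 1.96-fold lower (-0.97, SE 0.11, DESeq2 adjusted p = 1.1e-17) per the authors' deposited table. Their sizes were close and opposite in sign; the difference within this pair, and within the pairs of paralogues named below, was not tested. Cell cycle markers fell over the same days, as given above, and their part in the fall of Ezh2 was not tested. Of the 18 genes in this role, 4 were higher, 4 lower and 10 not listed, against 27.1% higher and 26.4% lower of all genes tested.

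Kmt2 and Setd1 genes were higher where they were listed. Kmt2e, a divergent Kmt2 member, had a log2 fold change of 0.71 (SE 0.15), Kmt2b 0.39 (SE 0.10) and Setd1a 0.28 (SE 0.12) per the authors' deposited table. Kmt2a, Kmt2c, Kmt2d and Setd1b were not listed, so 3 of the 7 Kmt2 and Setd1 genes were called and all 3 were higher. Of all genes with a peak, 31.0% were higher. The lower members besides Ezh2 were Setd4 (-1.16, SE 0.21, mean normalized count 83.6), Setd6 (-0.50, SE 0.14), which methylates the NF-kappaB subunit RelA, and Setd8 (-0.42, SE 0.08) per the authors' deposited table. Setd8, now named Kmt5a, is the enzyme that monomethylates histone H4 in dividing cells.

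Lysine demethylases had 5 higher members of 17, 2 lower and 10 not listed, where 27.1% of all genes tested were higher and 26.4% lower. The median log2 fold change was 0.84 over those listed, which leaves out the genes not called. Kdm4d and Kdm8, without a peak, are members only through their call. Kdm3a, which removes repressive H3 methylation and responds to hypoxia, rose 1.97-fold (0.98, SE 0.10, DESeq2 adjusted p = 1.8e-22) per the authors' deposited table. Kdm5b, an eraser of the active promoter mark, rose 1.94-fold (0.96, SE 0.14, DESeq2 adjusted p = 2.0e-11) per the authors' deposited table. The Kdm4 family was split: Kdm4b was higher (0.84, SE 0.15) and Kdm4a lower (-0.66, SE 0.09) per the authors' deposited table. Kdm4d had the largest value of any member (5.03), but with an SE of 1.51 and a mean normalized count of 2.76 per the authors' deposited table, so its size is poorly known. Kdm1a, the flavin-dependent demethylase LSD1, was slightly higher (0.30, SE 0.09), and Kdm8 was lower (-1.30, SE 0.23, mean normalized count 80.0) per the authors' deposited table. Both Polycomb demethylases, Kdm6a and Kdm6b, were not listed.

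Class IIa deacetylases, signal-dependent corepressors that move between nucleus and cytoplasm, had members that changed in both directions. Hdac5 was 3.73-fold higher (log2 fold change 1.90, SE 0.17, DESeq2 adjusted p = 2.6e-26) and Hdac4 was 3.59-fold lower (-1.84, SE 0.20, DESeq2 adjusted p = 3.3e-19) per the authors' deposited table. These were the largest rise and the largest fall among members with a mean normalized count from 100 upwards. As deposited, both carry the same Ensembl identifier, so they are told apart by symbol only and which gene each value belongs to is uncertain. Hdac7, of the same class, was only 1.21-fold lower (-0.28, SE 0.12). That last value, per the authors' deposited table, had a DESeq2 adjusted p of 0.040 and did not pass 0.01. Hdac6, the cytoplasmic tubulin deacetylase, rose (0.83, SE 0.09), and Hdac2, a class I nuclear enzyme, fell (-0.42, SE 0.11) per the authors' deposited table. Its partner Hdac1 was not listed, nor was Hdac3.

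Among acetyltransferases 1 member was higher, 3 were lower and 3 were not listed, against 27.1% higher and 26.4% lower of all genes tested. Kat2b (PCAF) was 3.39-fold higher (1.76, SE 0.15, DESeq2 adjusted p = 1.7e-31), while Kat2a (GCN5) was 1.72-fold lower (-0.78, SE 0.11, DESeq2 adjusted p = 1.5e-11) per the authors' deposited table. Both are catalytic subunits that take the same place in SAGA-type coactivator complexes. Kat7 (-0.64, SE 0.09), which acetylates histones at replication origins, and Kat8 (-0.57, SE 0.13), the MOF enzyme of histone H4, were lower per the authors' deposited table. Kat5, Kat6a and Kat6b were not listed.

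Sizes of change were smallest among remodellers, with medians in either direction of 0.37 for Chd and 0.54 for Smarc genes on the log2 scale. No Chd or Smarc gene reached a 2-fold change, and their largest sizes were 0.94 and 0.77 on the log2 scale. Chd4, the motor of the NuRD complex (0.33, SE 0.14), Chd6 (0.36, SE 0.12) and Chd8 (0.37, SE 0.12) were higher, and Chd2 (-0.60, SE 0.11) and Chd5 (-0.94, SE 0.33, mean normalized count 41.4) lower, per the authors' deposited table. Among Smarc genes 3 were higher, 5 lower and 3 not listed, against 27.1% higher and 26.4% lower of all genes tested. The alternative SWI/SNF motors moved apart by small amounts, Smarca4 (BRG1) at 0.32 (SE 0.12) and Smarca2 (BRM) at -0.31 (SE 0.14) per the authors' deposited table. Their DESeq2 adjusted p values were 0.021 and 0.047 per the authors' deposited table, both near the limit. Core subunits split as well, with Smarcc2 higher (0.77, SE 0.10) and Smarcb1 (-0.66, SE 0.11) and Smarcd1 (-0.61, SE 0.12) lower per the authors' deposited table. Smarcad1, a remodeller outside SWI/SNF, was higher (0.29, SE 0.11) per the authors' deposited table. Smarca5, the ISWI motor (-0.55, SE 0.12), and its pseudogene Smarca5-ps (-0.53, SE 0.15) had nearly the same value per the authors' deposited table. The sources used here do not give how reads shared by the pair were counted, so both values are uncertain.

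Arid genes hold a DNA-binding domain and belong to different complexes. The BAF and PBAF subunits Arid1a, Arid1b and Arid2 were not listed. Arid4a (0.63, SE 0.12) and Arid4b (0.33, SE 0.11), which recruit Sin3 deacetylase complexes, were higher, and Arid5a (-1.27, SE 0.18), an RNA-binding protein that stabilises inflammatory transcripts, was lower per the authors' deposited table.

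Partners of these enzymes, from a list of 94 other chromatin genes in 9 groups, had 19 members higher, 34 lower and 41 not listed, with a median log2 fold change of -0.39. Of the 80 with a peak, 18.8% were higher and 36.2% lower, against 31.0% and 34.6% of all genes with a peak, so the share of lower genes was near that of all such genes. COMPASS partners were lower in 7 of 11 and higher in 2, including the shared core subunits Wdr5 (-0.73, SE 0.09), Rbbp5 (-0.69, SE 0.11) and Ash2l (-0.60, SE 0.11) per the authors' deposited table. These falls stood beside small rises of the COMPASS enzymes Kmt2b and Setd1a. PRC2 partners had 4 of 9 lower, 2 higher and 3 not listed. Lower were the core subunits Eed (-0.56, SE 0.12) and Suz12 (-0.63, SE 0.13), with Rbbp7 (-1.32, SE 0.12) and Aebp2 (-0.72, SE 0.13), per the authors' deposited table. Phf1 (1.43, SE 0.16) and Jarid2 (0.59, SE 0.14) were higher per the authors' deposited table. Heterochromatin methyltransferases outside the rule had larger falls, Suv39h2 at -2.49 (SE 0.20) and Suv39h1 at -2.12 (SE 0.14) per the authors' deposited table. Among BAF partners 6 of 14 were lower and 1 higher, including Dpf1 (-2.65, SE 0.47, mean normalized count 24.2) and the PBAF subunit Phf10 (-2.08, SE 0.15, mean normalized count 2454) per the authors' deposited table. The other groups, as higher, lower and all, were 4, 4 and 16 for PRC1, 1, 4 and 9 for other lysine methyltransferases, and 2, 2 and 7 for other acetyltransferases and bromodomain readers. They were 2, 3 and 13 for deacetylase complex partners, 3, 4 and 11 for ISWI, INO80 and SRCAP partners, and 2, 0 and 4 for other demethylases.

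The peak lists show where the m6A antibody enriched RNA over input on each day, as 1 list per day. Peaks were listed in 67 members at day 0 and 64 at day 4, with 63 on both days. In all, 88.3% of members and 74.3% of the genes named in any table had a peak; a listed peak is itself 1 of the ways into the rule, so these shares are partly fixed by it. There were 301 member peaks at day 0 and 296 at day 4. Members with peaks had a median of 3 at day 0 and 4 at day 4, against 2 over all genes with peaks on either day, and 43.3% of them had 5 or more at day 0, against 14.6% of all genes. Members were also longer, with a median gene span of 61128 bp against 23860 bp for all protein-coding genes with a peak. Across the 67 members with day 0 peaks, the number of peaks and the gene span had a Spearman rho of 0.37, as a description over genes.

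**Figure D2:**
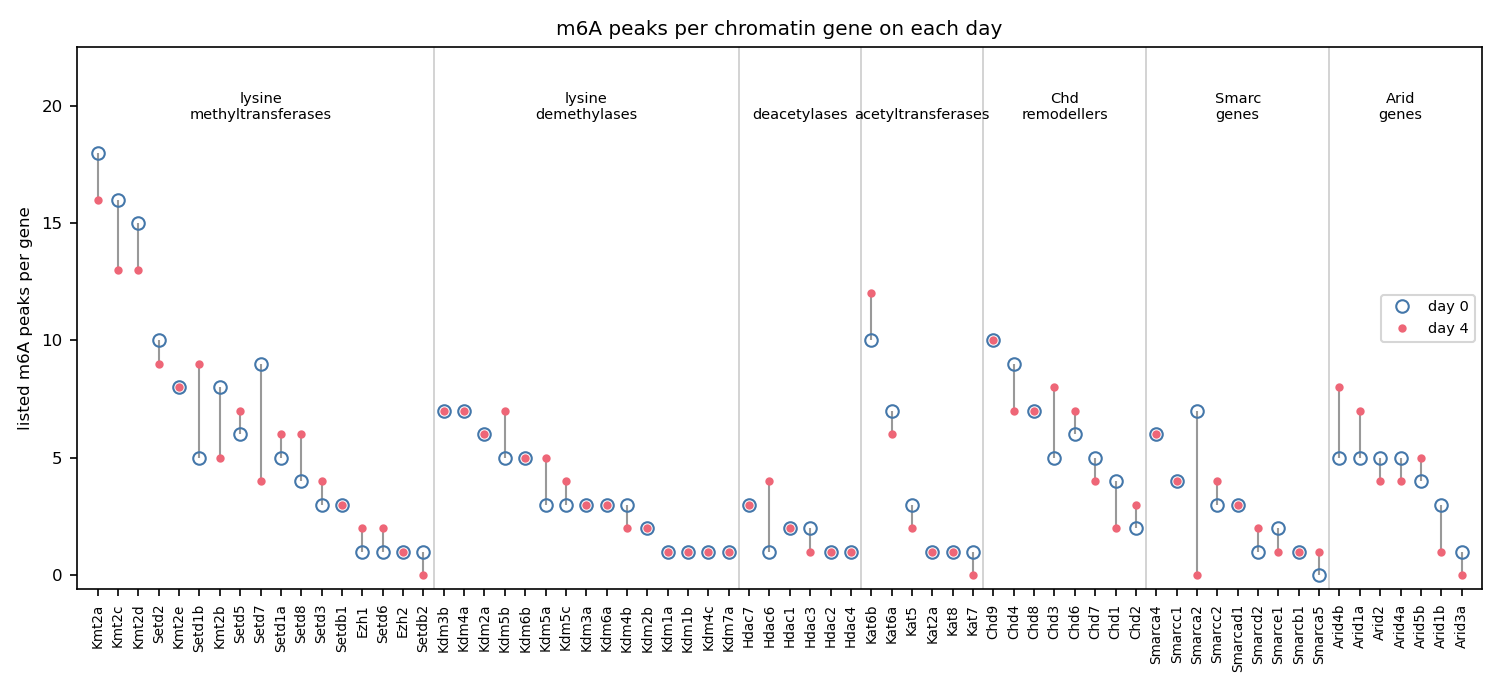
Number of listed m6A peaks per gene for the 68 chromatin genes with a peak, open circles for day 0 and filled circles for day 4, grouped by role. Kmt2a, Kmt2c and Kmt2d stand highest, at up to 18 peaks, most demethylases have equal numbers on both days, and Smarca2 drops from 7 to 0.

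The giant COMPASS genes carried the most peaks. Kmt2a (MLL1) had 18 peaks at day 0 and 16 at day 4, Kmt2c 16 and 13, and Kmt2d 15 and 13. Kmt2c and Kmt2d are the enhancer methyltransferases MLL3 and MLL4. Setd2, the enzyme of H3 methylation in gene bodies, had 10 and 9 peaks, Kat6b 10 and 12, and Chd9 10 on each day. At the other end, 9 members had no peak on either day: Arid5a, Chd5, Hdac5, Kat2b, Kdm4d, Kdm8, Setd4, Smarca5-ps and Smarcd1. Hdac5, taken by its symbol, and Kat2b, the strongest rises at a mean normalized count from 100 upwards, are among them, with means of 871 and 854 per the authors' deposited table. A gene without a peak enters the rule only through a called change, so strong changes among these members are partly fixed by it.

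The enrichment score is the authors' own value and was used to rank peaks within a list. The only peak of Kat2a, on chromosome 11 from 100704796 to 100705245 (mm10, minus strand), lay 50 bp from the annotated 3′ end. It had the highest score of all member peaks on both days, 1790 at day 0 and 494 at day 4, above 99.97% and 99.64% of its list. Other leading day 0 scores were those of Kdm3a (900, chromosome 6 from 71607581 to 71611927), Smarcad1 (799, chromosome 6 from 65114301 to 65114600), Kdm7a (676, chromosome 6 from 39142889 to 39143187) and Kdm2b (476, chromosome 5 from 122871371 to 122871818). At day 4 they were those of Kdm7a (365, chromosome 6 from 39142939 to 39143187), Chd6 (303, chromosome 2 from 160949174 to 160949572), Chd9 (301, chromosome 8 from 91051767 to 91052115) and Kdm4a (293, chromosome 4 from 118138045 to 118138242). The lists have no stated common scale, so scores of different days are not compared. The median member peak stood at the 46.9th percentile of its list at day 0 and the 50.3rd at day 4.

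Peaks lay mostly away from the gene ends. Within 1000 bp of the annotated 3′ end stood 36 of 301 member peaks at day 0 (11.96%) and 46 of 296 at day 4 (15.5%), against 29.7% and 31.2% over all peaks placed by name in a protein-coding gene. Counted by gene, 37.3% of members with a day 0 peak had 1 there, against 56.6% of all genes. Distances run along the genome with introns, and members are longer and hold more peaks, so the part of length in this difference was not tested. Near the annotated start, within 1000 bp, lay 9 member peaks at day 0 (2.99%) and 11 at day 4 (3.72%). Over all peaks so placed the shares were 9.13% and 11.2%, and the part of length was not tested here either.

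A few narrow peaks lay on the first transcribed bases, where the sequence could be read from RefSeq promoters (GRCm38.p6, the assembly of mm10). They are shown because they are the only member peaks of at most 300 bp that touch the first 50 transcribed bases of an entry, among the 57 members with a promoter entry. Smarcd2 had a peak 26 bp from its annotated gene start on both days, but its promoter entry begins at another position that the peak does not touch. Kat8 had its only peak on the same 50 bases on both days, chromosome 7 from 127912517 to 127912566 (score 208 at day 0 and 46.5 at day 4). Smarca5 had its only peak, at day 4, on chromosome 8 from 80739410 to 80739459 (score 52.0), and Kdm5c had a day 0 peak on chromosome X from 152233227 to 152233376 (score 76.2). An overlapping day 4 peak of Kdm5c, from 152233277 to 152233376 (score 29.1), lay just outside those first 50 bases. Capitals mark matches to the m6A consensus DRACH, searched on the transcribed strand as AAC or GAC preceded by A, G or T and followed by A, C or T; matches may overlap.
Kat8, bases 1 to 30, plus strand: acttccggcacagcaatggcggcacaggga
Smarca5, bases 16 to 45, minus strand: ggaggcctctgaGAACCttccgttttcctt
Kdm5c, bases 7 to 36, plus strand: gggaggagacgcTGACAAACCaagatggcg
The first 50 bases of Kat8 held no match, those of Smarca5 held 1 and those of Kdm5c held 2, which overlap each other. Of all 32851 promoter entries, 54.4% hold at least 1 match in their first 50 transcribed bases, so a match here is common.

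Between days the peaks of chromatin genes largely coincided. Of the 301 day 0 member peaks, 80.7% (Wilson 95% interval 75.9 to 84.8) overlapped a day 4 peak on the same strand by at least 1 bp, against 70.2% of all day 0 peaks. Of the 296 day 4 member peaks, 87.5% (83.25 to 90.8) overlapped a day 0 peak, against 78.9% of all. Identical coordinates on both days were held by 60 member peaks, of 301 at day 0 and 296 at day 4. Over all genes 3835 peaks held them, of 19920 at day 0 and 18423 at day 4, a similar share. In 53 of the 63 members with peaks on both days, the highest-scoring peaks of the days overlapped. The same share over all genes is not given here. The intervals treat peaks as independent, though many lie in the same gene, and cover counting error over peaks only. They are no test against the share of all peaks. Peaks without a partner were narrow and low: the 58 unmatched day 0 peaks had a median width of 50 bp and a median score percentile of 28.4, against 299 bp and 54.3 for the 243 matched ones.

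Numbers of peaks were equal on both days in 26 members, larger at day 0 in 21 and larger at day 4 in 21. This split is not given here over all genes, so it is not shown to be particular to chromatin genes. Demethylases were the most even, with 11 of 15 equal, followed by deacetylases with 4 of 6. Several of the equal demethylases, among them Kdm1a and Kdm7a, had a single peak on each day. Of the 68 members with a peak, 4 had peaks at day 0 only and 1 at day 4 only, against 1047 and 613 of the 7992 genes with a peak over the whole lists. Those at day 0 only were Arid3a, Kat7, Setdb2 and Smarca2, and the 1 at day 4 only was Smarca5. Arid3a, Kat7, Setdb2 and Smarca5 had a single peak each.

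Smarca2 stood apart from the other 3. It had 7 peaks at day 0, spread over the gene from 25830 bp behind the start to 2139 bp before the 3′ end, and none listed at day 4. Its day 0 scores ran from 5.50 to 17.9, all under the median of the day 0 list (21.4), with the authors' unadjusted p from 2.3e-13 to 5.9e-04. Its RNA fell only 1.24-fold, from a mean normalized count of 1738 per the authors' deposited table. No Smarca2 site is listed as changed in methylation, so the lost peaks are a difference of the peak lists without a called change behind it. The alternative motor Smarca4 had 6 peaks on each day, 5 of them overlapping the other day.

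Other members with large differences were Setd7, Setd1b, Hdac6, Kmt2b, Kmt2c, Chd3 and Arid4b. Setd7, a monomethyltransferase of H3 and of other proteins, had 9 peaks at day 0 and 4 at day 4, and 4 of the 9 overlapped. Kmt2b went from 8 to 5 and Kmt2c from 16 to 13, while Setd1b went from 5 to 9, Hdac6 from 1 to 4, Chd3 from 5 to 8 and Arid4b from 5 to 8. In Kmt2b, 7 of the 8 day 0 peaks overlapped day 4 peaks, some of which were wide and covered several of them. Its smaller number therefore mostly did not mark lost positions. All 8 day 4 peaks of Arid4b overlapped day 0 peaks, so there the larger number did not mark new positions. In Hdac6, by contrast, 1 of 4 day 4 peaks overlapped the day 0 peak.

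**Figure D3:**
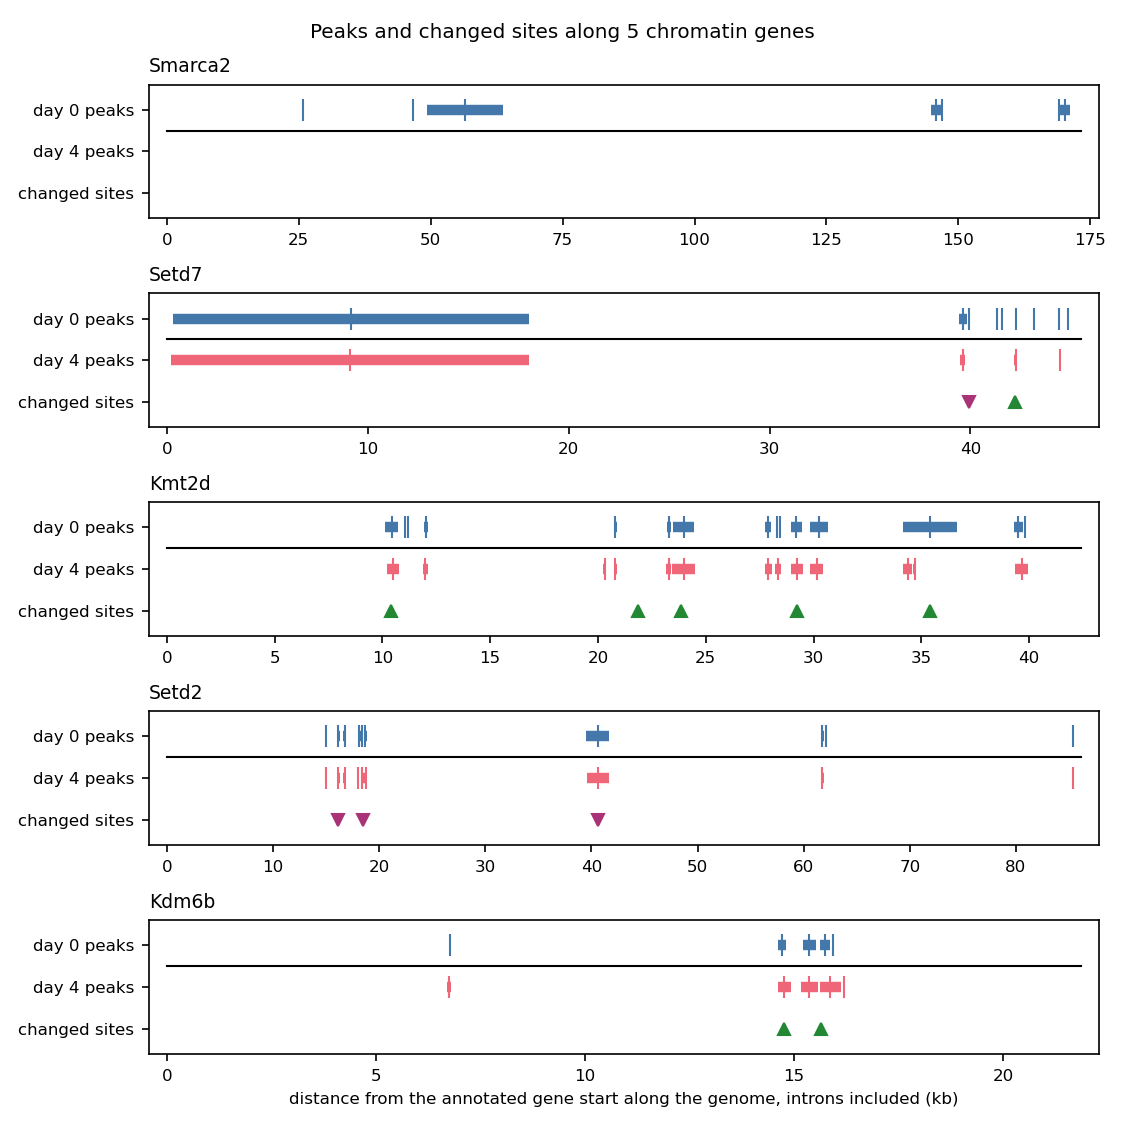
Peaks of day 0 (blue) and day 4 (red) and sites listed as changed in methylation (upward triangles for gains, downward for losses) along Smarca2, Setd7, Kmt2d, Setd2 and Kdm6b, in kb from the annotated start with introns included; ticks mark peak centres. Smarca2 has 7 day 0 peaks and no day 4 peak, Kmt2d has 5 gains and Setd2 has 3 losses.

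Differential methylation was listed by the authors per site, as a log fold change whose base is not stated. Chromatin genes held 37 listed sites in 24 members, 23 gains and 14 losses at day 4. Over the whole comparison 6.96% of 36796 sites tested were called, 4.79% as gains and 2.17% as losses. The number of member sites tested is not known, so counts are set against genes: 35.3% of members with a peak had a called site, against 25.2% of all genes with a peak. Members hold more peaks per gene, as given above, and its part in this share was not tested. Gains made up 62.2% of member sites and 68.8% of all sites. Of the 24 members, 12 had gains only, 9 losses only and 3 both.

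Lysine methyltransferases held 24 of the 37 sites, in 13 of 18 genes, where 25.2% of all genes with a peak had a called site. This role also held 114 of the 301 member peaks at day 0 and 108 of the 296 at day 4. The part of peak number in its sites was not tested. Kmt2d had 5 sites, all gains, with log fold changes of 0.54, 0.60, 0.79, 1.13 and 3.10 (false discovery rates from 0.010 to 0.041) per the authors' deposited table. Setd1a had 3 gains of similar size, 0.96, 0.99 and 1.00, and Setd1b 1 of 1.28 per the authors' deposited table. Kmt2b had a gain of 0.79 (false discovery rate 5.6e-04) per the authors' deposited table. Setd2 went the other way, with 3 losses of -0.99, -0.83 and -0.54 (false discovery rates 2.1e-05, 6.0e-04 and 0.022) per the authors' deposited table. Kmt2d, Setd1b and Setd2 were not listed in expression, so their sites changed without a called change in RNA level.

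Mixed members were Kmt2e, Setd7 and Chd6. Kmt2e had gains of 3.47 (false discovery rate 3.8e-05) and 1.52 and a loss of -1.03 per the authors' deposited table. In Setd7, a site on chromosome 3 from 51520884 to 51520933 had the largest finite loss of any member (-5.21, false discovery rate 0.028), and a site from 51518499 to 51518697 a gain of 1.78 (0.024) per the authors' deposited table. The lost site lies on a day 0 peak and on no day 4 peak, and the gained site on peaks of both days. Chd6 had a loss of -1.09 (false discovery rate 1.0e-05) and an infinite gain, a value per the authors' deposited table where the fold has no finite size.

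Other methyltransferases had single sites. Ezh1 had a loss of -2.98 (false discovery rate 0.0096), on chromosome 11 from 101192748 to 101192797, per the authors' deposited table, while its RNA rose. That site overlaps no listed peak. Setdb1, which silences retroviral repeats, had a loss of -1.50 and Setd6 one of -0.57 per the authors' deposited table. Setd3, the actin histidine methyltransferase, had a gain of 3.48 that lay 50 bp from the 3′ end, per the authors' deposited table. It is counted in this role by its symbol. Kmt2a had an infinite gain and Kmt2c an infinite loss per the authors' deposited table.

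**Figure D4:**
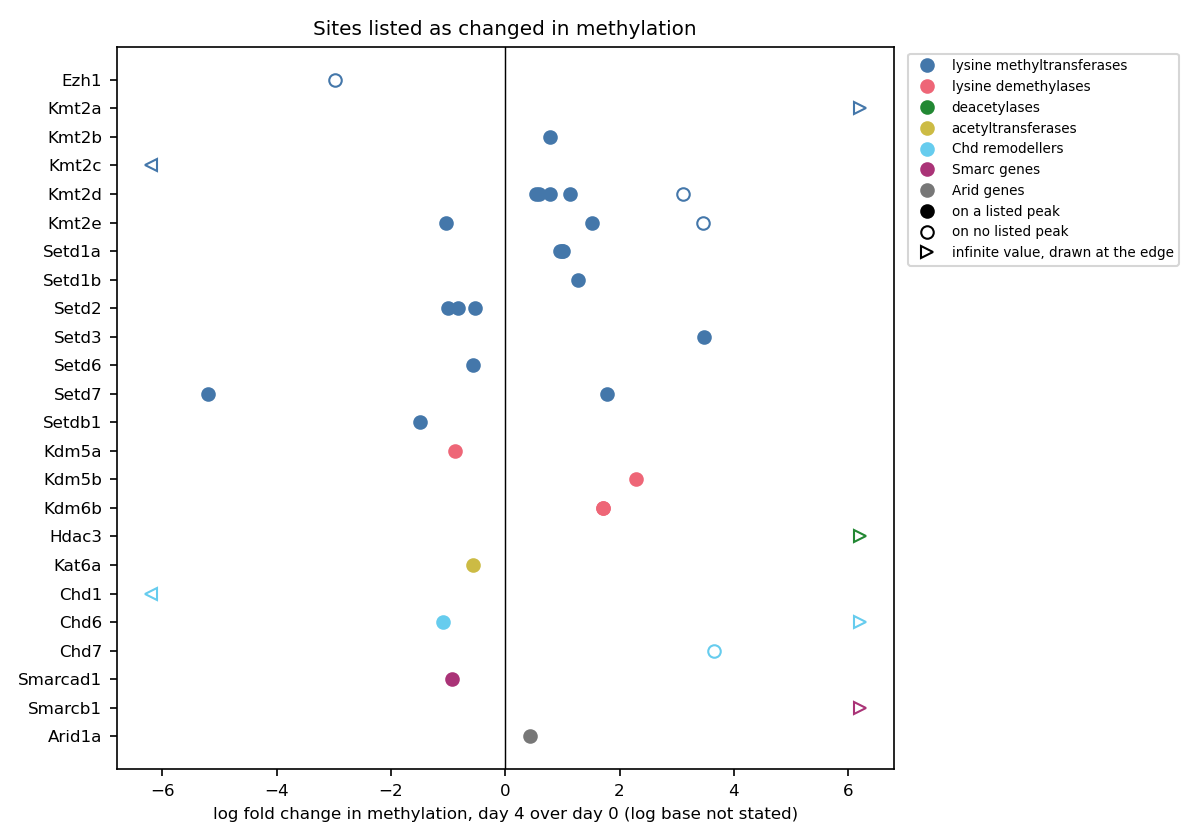
Log fold change in methylation, day 4 over day 0, of the 37 listed sites in 24 chromatin genes, filled where the site overlaps a listed peak and open where it does not; triangles at the edges are infinite values. Kmt2d and Setd1a lie to the right of 0, Setd2 lies to the left, and all 6 infinite sites are open.

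The member site with the lowest false discovery rate was in Kdm6b, the Polycomb demethylase. Kdm6b had gains of 1.70 on chromosome 11 from 69404103 to 69405351 (false discovery rate 5.9e-18) and of 1.72 from 69405402 to 69405801 (7.2e-05) per the authors' deposited table. Both overlap peaks of both days, and Kdm6b had 5 peaks on each. Its RNA was not listed as changed. The Kdm5 paralogues differed in sign, Kdm5b with a gain of 2.29 (false discovery rate 0.024) 700 bp from its 3′ end and Kdm5a with a loss of -0.88 (0.011) 50 bp from its start per the authors' deposited table. Kdm5b RNA was higher, as given above, and Kdm5a was not listed in expression.

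Deacetylases, acetyltransferases and remodellers had few sites. Kat6a had a loss of -0.56 and Smarcad1 one of -0.93 per the authors' deposited table. Arid1a had a gain of 0.44 and Chd7, mutated in CHARGE syndrome, one of 3.66 per the authors' deposited table. Chd1 had an infinite loss (false discovery rate 1.1e-04), and Hdac3 and Smarcb1 infinite gains, per the authors' deposited table. The Hdac3 and Smarcb1 sites began 76 and 49 bp from the annotated gene start. All 6 infinite sites of members lay on no listed peak, and so did 10 of all 37 (27.0%, against 22.8% of all listed sites).

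Calls in both tables were compared last. Of the 24 members with a changed site, 7 were higher in expression, 2 lower and 15 not listed. The share listed was 37.5%, against 45.6% of members with a peak and 65.6% of all genes with a peak. The split over all genes with a changed site is not given here, and a link between the calls was not tested. Higher with gains only were Kdm5b, Kmt2b and Setd1a, and higher with losses only were Ezh1 and Smarcad1. Kmt2e and Chd6 were higher with sites of both signs. Setd6 was lower with a loss, and Smarcb1 lower with a gain.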

How the data were processed

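Day 0 and day 4 were compared in 12 libraries, grouped by title, 3 per day and kind. The submitters' processing notes name HISAT2 2.1.0, DESeq2 1.18.1 and the build mm10. The sources used here do not give the peak caller or the methylation test. The authors deposited an enrichment score and an unadjusted p-value per peak. Their expression table holds a mean normalized count (a signal averaged over libraries, per the file headers), a log2 fold change with its SE, a test statistic used as a score, and an adjusted p-value. For methylation they deposited a log fold change, of unstated base and treated as a score, and a false discovery rate, per the file headers. Both list only calls under 0.05, and depth is unknown.

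Neither header names its direction. Of listed genes with peaks at day 0 only, 4.02% had positive expression values, against 93.8% with peaks at day 4 only; for sites on a peak of a single day the shares were 24.4% and 98.8%. Positive was therefore read as higher at day 4. Numbers tested were derived from adjusted p times rank over p, and overlaps computed in Python 3.11.15 (numpy 2.4.6, pandas 2.3.3, scipy 1.17.1), both tested on simulated data, the overlaps against bedtools 2.31.1. Figures used matplotlib 3.10.9. Gene spans came from RefSeq GRCm38.p6, where Setd8 was found as Kmt5a, and all 634 member peaks and sites lay inside them. No member peak overlapped a same-strand peak of another gene.

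The members and lists were chosen with earlier results of these data known. Full values go to the 10 largest rises and falls with a mean of at least 100, up to 3 listed members per role and 2 going the other way, members with a changed site or with peaks on a single day, and per day the 5 members with most peaks and the 5 highest scores. Alternatives were stricter limits, a 2-fold minimum, other overlap rules and other distances. No test of the members as a set was made.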

Additional observations from a re-analysis of the deposited data

How the results depend on the processing

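No paired analysis was possible because the deposited tables carry no column per library, and for the same reason leaving out single replicates was not run. Of 35 alternative values, 20 stayed close to the value reported, 14 moved and 1 changed sign. A 2-fold minimum cut the listed members from 40 to 7, with 3 higher and 4 lower. The median log2 fold change of listed members turned from 0.00058 to -0.42 at an adjusted p under 0.01, and was 0.28 for mean normalized counts from 100 upwards, so its sign is not settled. When an overlap of at least 50% of both peaks was required, 61.5% of day 0 and 62.5% of day 4 member peaks were shared. At a false discovery rate under 0.01, 12 gains and 8 losses remained, and counting genes by the mean over their finite sites gave 10 gains and 9 losses. Within 500 bp of the 3′ end lay 5.98% of member peaks at day 0 and 8.45% at day 4, and within 2000 bp 23.6% and 25.3%. Peaks at an unadjusted p under 1e-5 left 67 members with peaks at day 0 and 64 at day 4. Depth per library is unknown, so a gene that is not listed cannot be told apart from one measured too shallowly.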

Other observations

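Of the 94 other chromatin genes outside the symbol rule, 80 had a listed peak, 8 of them at day 0 only and 1 at day 4 only. Over all 7992 genes with a peak the counts were 1047 and 613. The set with peaks on a single day was singled out after its values were seen. Of the 8, 7 had lower RNA at day 4 and 1, Gatad2b of the NuRD complex (1 peak), was not listed per the authors' deposited table. Over all genes with peaks at day 0 only, 765 of the 797 listed in expression were lower, so this direction is that of such genes in general, and those genes also served to read the direction of the table. Aebp2, a PRC2 partner, had 6 peaks at day 0 and a log2 fold change of -0.72 (SE 0.13) per the authors' deposited table. Hat1, the acetyltransferase of newly made histone H4, had 4 peaks (-1.43, SE 0.14) and Cecr2, an ISWI partner, 4 (-0.95, SE 0.16) per the authors' deposited table. Suv39h1 had 3 peaks, Suv39h2 2 and Phf10 2, with the log2 fold changes given above. Ino80, the motor of the remodeller of that name, had 1 (-0.81, SE 0.12) per the authors' deposited table. Pcgf2, a PRC1 subunit, had its only peak at day 4 and was higher (0.37, SE 0.13) per the authors' deposited table. All 10 of 10 cell cycle markers were lower at day 4, and their part in these values was not tested.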
